A study of Mus musculus with 12 samples.

Results

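The genes described here encode nuclear subunits of the 5 complexes of oxidative phosphorylation in the mouse. They were taken by symbol: every probe with a single gene symbol that begins with Nduf and a letter a, b, c, s or v before a digit, that names 1 of the 4 Sdh subunits, or that begins with Uqcr, Cox4 to Cox8 or Atp5. This gave 62 of 33012 probes and 61 of the 13840 genes named on the array. Complex I was represented by 27 genes, complex II by 4, complex III by 6, complex IV by 12 and complex V by 12. No probe carried a symbol of the mitochondrial genome, so the catalytic subunits encoded there are not described. Ndufs5-ps, a complex I member of the list, is annotated as a pseudogene, and signal from its parent gene could be part of its value. Atp5j had 2 probes, and for every other gene a single probe stood for the gene.

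Oxidative phosphorylation takes electrons from NADH through complex I and from succinate through complex II, passes them by way of complex III and cytochrome c to oxygen at complex IV, and uses the resulting proton gradient to make ATP at complex V. Core subunits hold the flavins, iron-sulphur clusters and catalytic sites, and many small accessory subunits build and stabilise the complexes around them. Complex IV has subunits with tissue isoforms: Cox7a1 and Cox8b are the forms of heart and skeletal muscle, while Cox8a is found in most tissues. Skeletal muscle has a large and variable demand for ATP, and neurons rely on mitochondrial ATP to keep their ion gradients.

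The study compared male mice of the homozygous congenic strain B6.CAST-17, in which a chromosome 17 segment of the CAST strain lies on the B6 background, with male wild type B6 mice, to look for expression differences that go with physical activity and carbohydrate preference. Skeletal muscle and hypothalamus were profiled on 12 arrays, 3 per strain and tissue, and each strain is described as 3 mice that count as biological replicates. No treatment, age or muscle is named. The titles call the congenics short only for the hypothalamus, and the extent of the segment is not given in the sources used here, so it was not tested whether the same congenic line served both tissues. RNA came from whole tissue, in which fewer cells of a type and less RNA per cell cannot be told apart.

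Values are deposited log intensities, read as log2, and ran from 5.35 to 21.1 with an array median of 9.12 in muscle and 8.98 in hypothalamus. No background calls were available, so a value near or below the median cannot be told from background. A fold change against such a value depends on an unknown background. Wild type hypothalamus array 1 stood apart: its rank correlation with the other hypothalamus arrays was 0.42 to 0.461, against 0.775 to 0.853 among the other 5 and 0.796 to 0.862 among the 6 muscle arrays. The tissue labels held against most of their markers. Of 9 muscle markers measured, 8 passed the limma test as higher in muscle, against 23.3% of all genes. Of 9 neuron markers 6 passed as lower there, against 12.6% of all genes. Some marker probes did not follow. Slow myosin, Myh7, lay at 8.15 to 10.54 in muscle and 12.97 to 14.74 in hypothalamus. Snap25, a synaptic protein, lay between 7.25 and 8.28 in muscle and between 7.33 and 8.26 in hypothalamus. The neuron markers Syt1 and Tubb3 did not pass either, at 0.01 (limma adjusted p = 0.986) and -1.89 (0.226), muscle minus hypothalamus.

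**Figure D1:**
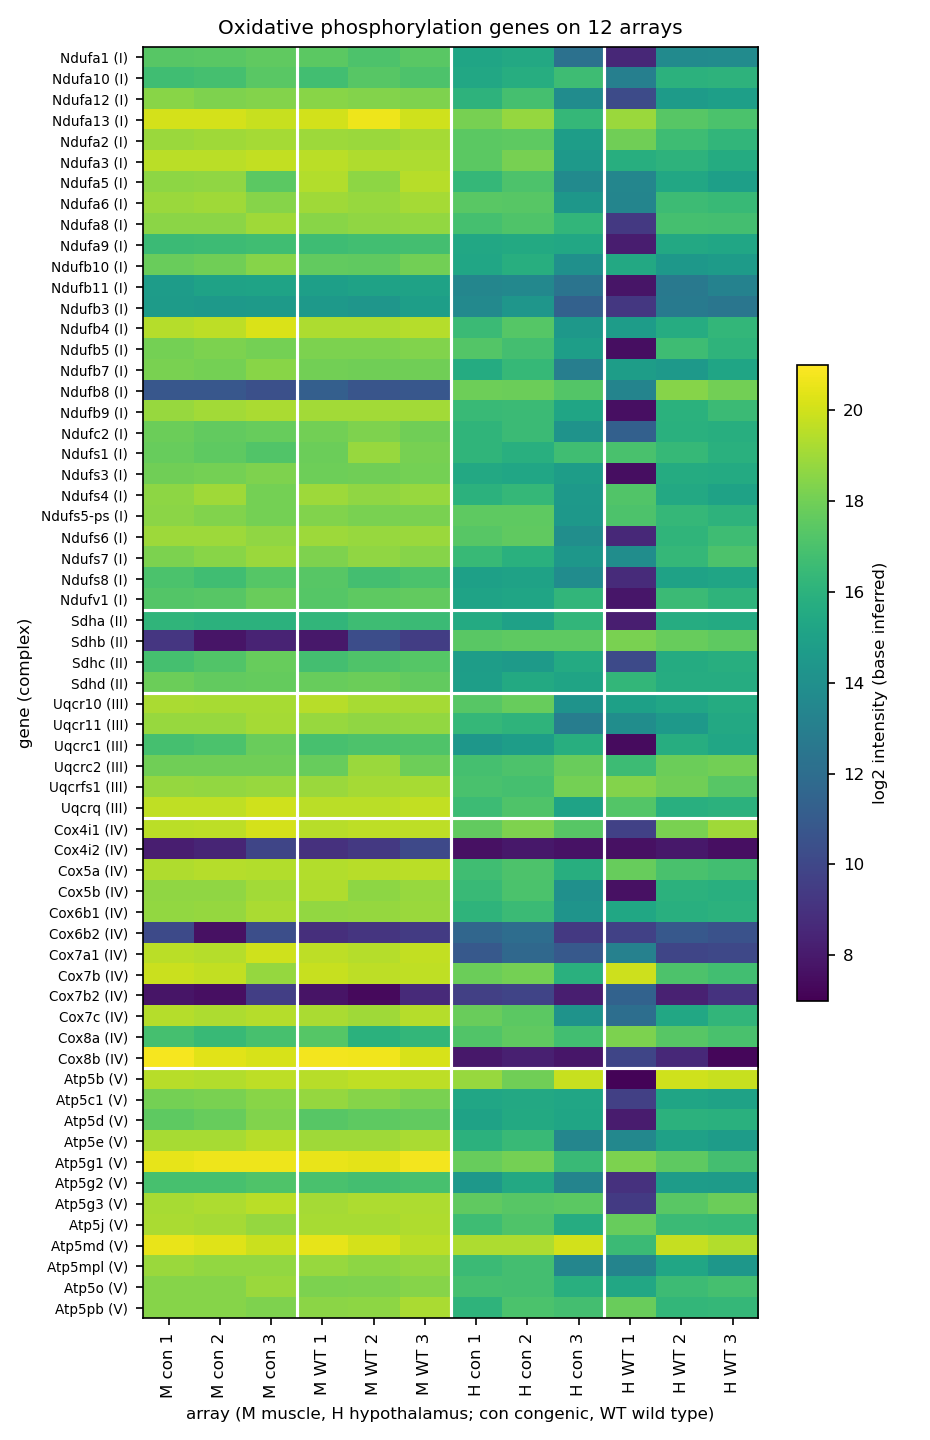
Log2 intensity of 61 oxidative phosphorylation genes (rows, by complex) on 12 arrays (columns, muscle left of hypothalamus, congenic before wild type); the colour scale runs from 7 to 21. Muscle arrays are brighter for most genes, and wild type hypothalamus array 1 and congenic hypothalamus array 3 are darker than the other hypothalamus arrays for many genes.

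Most of these genes were higher in muscle than in hypothalamus. The median over the 61 genes was 18.50, 18.48 and 18.45 on the congenic muscle arrays and 18.50, 18.63 and 18.48 on the wild type muscle arrays. In hypothalamus it was 16.35, 16.79 and 14.79 on the congenic arrays and 13.32, 15.90 and 15.91 on the wild type arrays. The 6 muscle medians thus lay within a narrow band above all 6 hypothalamus medians, and wild type array 1 and congenic array 3 were the lowest of the hypothalamus.

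By limma, with Benjamini-Hochberg adjustment over all 33012 probes and a threshold of 0.05, 47 of the 61 genes were higher in muscle and 2 were lower, Sdhb and Ndufb8. Among all 13840 genes 23.3% were higher and 12.6% lower. In a fit of only the probes with a mean at or above the median, 48 of 59 members were higher and 2 lower. Of the 8739 genes in that fit 35.9% were higher and 19.5% lower. The median difference, muscle minus hypothalamus, was 2.96 for the 61 genes and 0.26 for all genes, and 56 of the 61 differences were above 0. On the arrays themselves, 50 genes had every muscle value above every hypothalamus value, against 18% of all genes, and 2 had every muscle value below, against 7.81%. Without wild type hypothalamus array 1, 53 were higher and 3 lower, against 30.4% and 19.1% of all genes, and the median difference was 2.37.

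The deposited values had been brought to a single distribution within each tissue, so the difference is relative to each tissue's own distribution. With all 12 arrays quantile normalized together, 36 genes were higher and 3 lower, against 18.7% and 14.7% of all genes, with a median of 2.23, and the all-gene median was then 0.07. A joint normalization of the 11 arrays without wild type hypothalamus array 1 gave 49 higher and 4 lower, against 25.2% and 22.5%, with a median of 1.55. Of all called genes, 64.9% were higher in muscle as deposited, and 56% after the joint normalization, or 52.8% after that of 11 arrays. Congenic arrays called 48 genes higher in muscle and 2 lower (21.4% and 12.7% of all genes). All wild type arrays called 29 and 2 (9.24% and 5.06%). Wild type arrays without hypothalamus array 1 called 53 and 3 (27.3% and 19.4%). Of the genes higher in muscle, this last fit and the congenic fit shared 48, which is 100% of the congenic calls and 90.6% of the wild type calls; Cox4i2, Ndufa10, Ndufb3, Ndufs5-ps and Sdha passed in the wild type fit alone. With all wild type arrays the fits shared 27, which is 56.2% of the congenic calls and 93.1% of the wild type calls, so which genes passed in a single strain changed with array 1. Whether their tissue difference differed between the strains is what the interaction test asks. No member passed it on 12 arrays or without array 1. In a later setting that left out 2 hypothalamus arrays, 6 members passed, as described below.

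**Figure D2:**
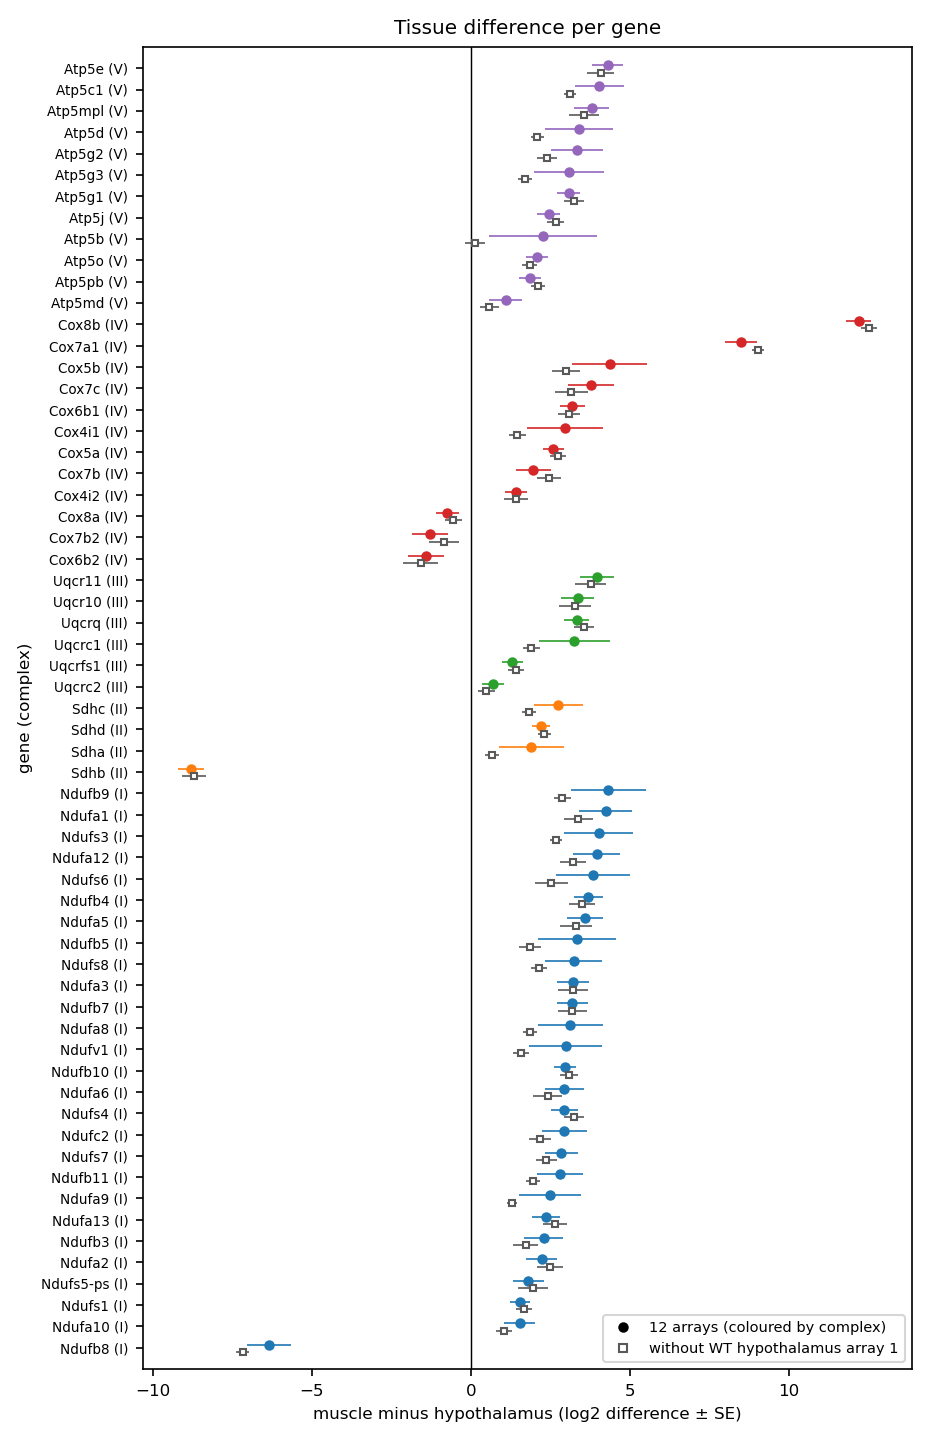
Muscle minus hypothalamus for each gene on the log2 scale, with the standard error of the limma fit, by complex; filled circles are the fit of 12 arrays and open squares the fit without wild type hypothalamus array 1. Cox8b at 12.20 and Cox7a1 at 8.51 lie far to the right, Sdhb at -8.80 and Ndufb8 at -6.34 far to the left, and most other genes lie between 1 and 5.

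Complex IV, cytochrome c oxidase, held the widest range of tissue differences, from -1.41 to 12.20. Cox8b, the heart and muscle form of subunit 8, read 20.82, 20.39 and 20.17 on the congenic muscle arrays and 20.74, 20.68 and 20.16 on the wild type muscle arrays. In hypothalamus it read 7.91, 8.21 and 7.84 in the congenics and 9.90, 8.60 and 7.27 in the wild type. Every muscle array was above every hypothalamus array. The hypothalamus values lay at percentiles 3.45 to 32.3 of the named genes on 5 arrays and at 58.6 on wild type array 1. The difference was 12.20 (SE 0.40; limma adjusted p = 1.83e-10).

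Cox7a1, the heart and muscle form of subunit 7a, read 19.54, 19.45 and 19.97 in congenic muscle and 19.59, 19.45 and 19.70 in wild type muscle. In hypothalamus it read 10.89, 11.73 and 10.93 in the congenics and 13.17, 9.91 and 10.05 in the wild type. The groups of the 2 tissues did not overlap, and wild type array 1 was the highest in hypothalamus. The difference was 8.51 (SE 0.50; limma adjusted p = 3.1e-08).

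Cox8a, the widely found form of subunit 8, read 16.89, 16.42 and 16.91 in congenic muscle and 17.33, 15.96 and 16.26 in wild type muscle. In hypothalamus it read 17.18, 17.58 and 16.78 in the congenics and 18.26, 17.37 and 16.98 in the wild type. The tissues overlapped, and the difference of -0.73 (SE 0.35) did not pass as deposited (limma adjusted p = 0.142), while it was -1.55 with an adjusted p of 0.00437 after the joint normalization.

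The 250 bases before the annotated start of these isoform genes are shown because Cox8b and Cox7a1 had the largest muscle excess of all members and Cox8a, the partner of Cox8b, did not pass as deposited; capitals mark the E box CAGCTG, which myogenic factors bind. Sequences are RefSeq's for mouse GRCm38.p6, at chr7:140900447-140900696 on the minus strand for Cox8b, chr7:30183921-30184170 on the plus strand for Cox7a1 and chr19:7217617-7217866 on the minus strand for Cox8a.
Cox8b: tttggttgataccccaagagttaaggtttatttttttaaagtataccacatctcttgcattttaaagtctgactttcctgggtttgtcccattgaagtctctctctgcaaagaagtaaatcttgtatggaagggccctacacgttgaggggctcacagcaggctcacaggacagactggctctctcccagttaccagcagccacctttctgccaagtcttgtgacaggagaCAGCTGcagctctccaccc
Cox7a1: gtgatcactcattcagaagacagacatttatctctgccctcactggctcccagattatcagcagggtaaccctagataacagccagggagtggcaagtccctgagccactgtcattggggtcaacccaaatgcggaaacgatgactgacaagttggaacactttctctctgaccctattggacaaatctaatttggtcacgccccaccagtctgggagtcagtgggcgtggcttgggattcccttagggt
Cox8a: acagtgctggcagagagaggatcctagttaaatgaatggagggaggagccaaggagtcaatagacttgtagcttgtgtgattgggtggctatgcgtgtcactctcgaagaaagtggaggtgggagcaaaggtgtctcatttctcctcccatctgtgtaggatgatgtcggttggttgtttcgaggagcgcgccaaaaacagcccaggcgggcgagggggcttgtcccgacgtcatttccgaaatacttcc
The E box of Cox8b began at position -19 from the start. Neither of the other sequences held it or any of the 4 further motifs searched on both strands, each of which is a description of letters and not a site.

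Of the 61 genes, 51 had such a sequence. CAGCTG was in 4 of them, Atp5b, Cox8b, Ndufa8 and Ndufb10, which is 7.84% against 14.7% of 27025 genes. CCGGAAGT, the ETS core that GABP binds, was in 1 (Uqcr11), 1.96% against 3.23%. The palindromic NRF1 motif was in 1 (Atp5g2), 1.96% against 0.877%. AAGGTCA, which estrogen related receptors bind, was in 2 (Atp5g3 and Ndufb4), 3.92% against 4.7%. The MEF2 motif was in 0 of 51 and in 0.167% of all genes.

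The other complex IV members fell into 2 kinds. Cox5a and Cox5b, which sit next to the catalytic core, were higher in muscle by 2.60 (SE 0.32; limma adjusted p = 3.42e-05) and 4.37 (SE 1.17; 0.0118); without wild type hypothalamus array 1, where Cox5b read 7.65 against 14.01 to 17.04 on the other 5, the latter was 3.00. Cox6b1, Cox7b and Cox7c were higher by 3.20, 1.97 and 3.78, all with an adjusted p under the threshold. Cox4i1, the common form of the largest nuclear subunit, read 19.49 to 20.12 in muscle and 17.64, 18.30, 17.37, 9.70, 18.16 and 19.01 in hypothalamus, where the 9.70 is wild type array 1. Its difference of 2.96 (SE 1.20) did not pass with all arrays (limma adjusted p = 0.0836) and was 1.47 (SE 0.27; 0.000442) without that array.

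Cox4i2, the form of lung known for its response to oxygen, read 8.19 to 10.11 in muscle and 7.59 to 7.92 in hypothalamus. These values lay at percentiles 19.5 to 51.1 of the named genes in muscle and 8.07 to 16.9 in hypothalamus. They cannot be told from background. Cox4i2 was higher in muscle by 1.43 (limma adjusted p = 0.00656). Cox6b2 and Cox7b2, isoforms known from testis, read 7.61 to 10.36 and 7.34 to 9.61 in muscle and 9.34 to 12.01 and 8.18 to 11.41 in hypothalamus. Their differences were -1.41 (limma adjusted p = 0.0806) and -1.28 (0.118). Of the 12 complex IV genes 8 were higher in muscle and 0 lower, against 23.3% and 12.6% of all genes. The median difference was 2.78. The 8 were Cox4i2, Cox5a, Cox5b, Cox6b1, Cox7a1, Cox7b, Cox7c and Cox8b.

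**Figure D3:**
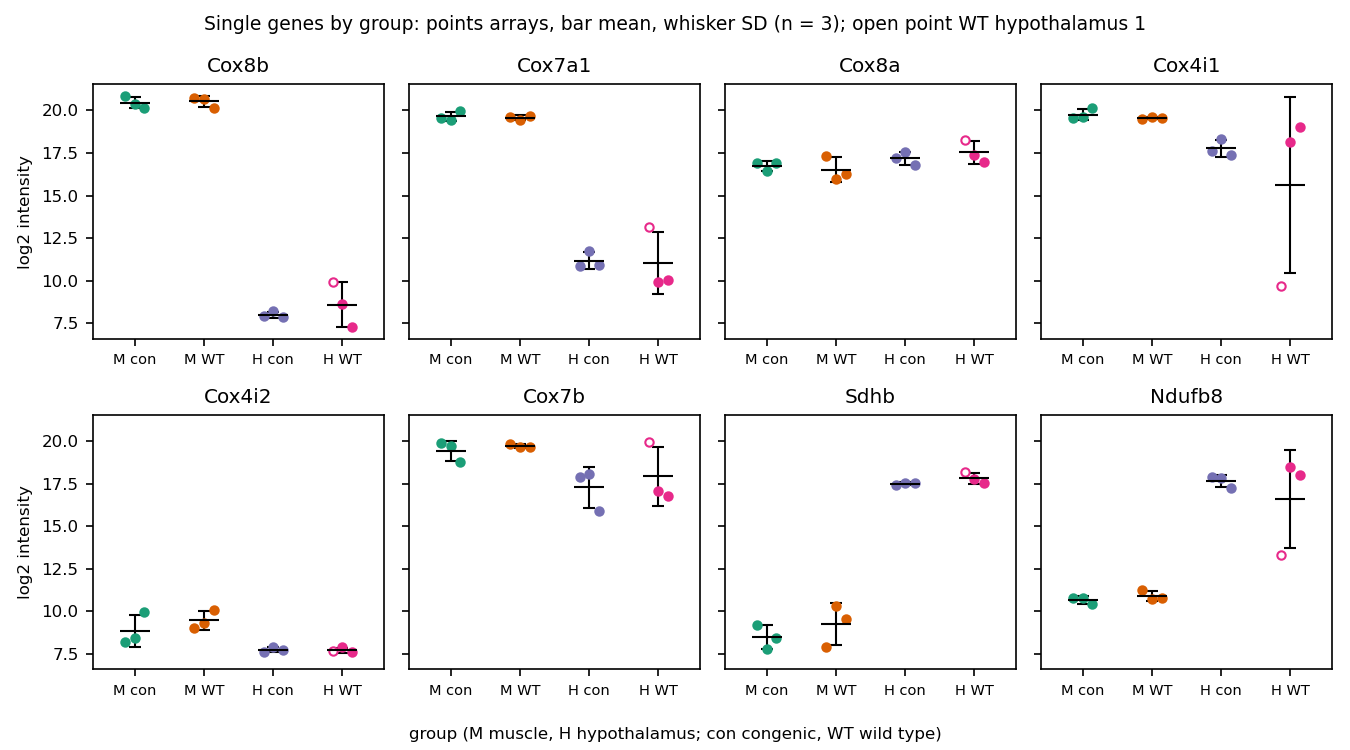
Log2 intensity of 8 genes in the 4 groups (3 arrays each, points); bars are means and whiskers SD, and the open point is wild type hypothalamus array 1. Cox8b and Cox7a1 are high only on muscle arrays, Sdhb and Ndufb8 lie between 7.80 and 11.26 on muscle arrays, and Cox8a overlaps between the tissues.

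Complex I, NADH dehydrogenase, had 23 of 27 genes higher in muscle and 1 lower, against 23.3% and 12.6% of all genes. Its median difference was 2.96. With all arrays the largest was Ndufb9, an accessory subunit, at 4.33 (SE 1.18; limma adjusted p = 0.0129), and it read 18.84 to 19.21 in muscle and 15.24 to 16.56 on 5 hypothalamus arrays, with 7.56 on wild type array 1. Without that array the difference was 2.88, and the largest of complex I was that of Ndufb4, also an accessory subunit, at 3.50. Among the core subunits, Ndufs1, which carries iron-sulphur clusters of the electron input module, was higher by 1.55 (SE 0.32; limma adjusted p = 0.00236). Ndufv1, which binds NADH and the flavin, read 17.28 to 17.82 in muscle and 15.12 to 16.54 on 5 hypothalamus arrays and 7.85 on wild type array 1; its difference of 2.99 did not pass with all arrays (limma adjusted p = 0.0676) and was 1.58 without that array (7.26e-05).

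Ndufb8, an accessory subunit of the membrane arm, was the exception of complex I. It read 10.80, 10.78 and 10.41 in congenic muscle and 11.26, 10.70 and 10.80 in wild type muscle. In hypothalamus it read 17.91, 17.84 and 17.23 in the congenics and 13.32, 18.47 and 18.04 in the wild type. Every muscle array was below every hypothalamus array, and wild type array 1 was again the odd value. The difference was -6.34 (SE 0.70; limma adjusted p = 1.3e-05), and -7.17 without that array.

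Complex II, succinate dehydrogenase, is built from 4 subunits, and they did not move together. Sdhc and Sdhd, the membrane anchors, were higher in muscle by 2.76 (SE 0.78; limma adjusted p = 0.0165) and 2.21 (SE 0.27; 3.49e-05). Sdha, the flavoprotein, read 15.97 to 16.66 in muscle and 15.01 to 16.20 on 5 hypothalamus arrays, with 8.18 on wild type array 1. Its difference of 1.91 did not pass (limma adjusted p = 0.19), and it was 0.67 without that array (0.0254). After a joint normalization of the other 11 arrays it was -0.10, so the direction of Sdha turns with the scaling.

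Sdhb, the iron-sulphur subunit of the same complex, read 9.20, 7.80 and 8.41 in congenic muscle and 7.91, 10.31 and 9.56 in wild type muscle. In hypothalamus it read 17.40, 17.55 and 17.55 in the congenics and 18.18, 17.76 and 17.53 in the wild type. The muscle values lay around the median of an array, and the hypothalamus values were all above 17. The difference was -8.80 (SE 0.41; limma adjusted p = 3.89e-09), and it stayed between -9.29 and -8.38 over the joint normalizations, the fits of either strain and the fits that left out wild type hypothalamus array 1. Sdhb and Ndufb8 each had a single probe, so no other probe could be set beside these values. Whether these probes report the main transcripts of the genes was not tested, so the low muscle values may not be those of the main transcripts.

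Complex III passes electrons from ubiquinol to cytochrome c. It had 5 of 6 genes higher in muscle and 0 lower, against 23.3% and 12.6% of all genes. Its median difference was 3.30. Uqcr11 and Uqcrq, small accessory subunits, were higher by 3.97 (SE 0.53; limma adjusted p = 6.85e-05) and 3.34 (SE 0.39; 2.15e-05). The core protein Uqcrc1 read 16.89 to 17.80 in muscle, 14.39 to 15.75 on 5 hypothalamus arrays and 7.39 on wild type array 1; its difference was 3.26 (limma adjusted p = 0.0403), and 1.91 without that array (3.27e-05). The Rieske iron-sulphur protein Uqcrfs1 was higher by 1.31 (SE 0.32; limma adjusted p = 0.00685), and 0.49 after the joint normalization (0.295). Uqcrc2, the other core protein, differed by 0.71 (limma adjusted p = 0.158) and by -0.13 after the joint normalization.

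Complex V, the ATP synthase, had 9 of 12 genes higher in muscle and 0 lower, against 23.3% and 12.6% of all genes. Its median difference was 3.09. Atp5e, a small subunit of the central stalk, read 18.98 to 19.50 in muscle and 13.40 to 16.51 in hypothalamus, a difference of 4.31 (SE 0.49; limma adjusted p = 1.58e-05). The 3 genes Atp5g1, Atp5g2 and Atp5g3 encode the same mature subunit c of the rotor ring. They differed by 3.08 (SE 0.36; limma adjusted p = 2.13e-05), 3.35 (SE 0.82; 0.00696) and 3.09 (SE 1.11; 0.0522), and without wild type hypothalamus array 1 all 3 passed, at 3.26, 2.40 and 1.71. The second probe of Atp5j, a stalk subunit, gave 2.70 where the brighter one gave 2.45, both with a limma adjusted p under the threshold.

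Atp5b, the catalytic beta subunit, was among the members with no tissue difference that passed. It read 19.39 to 19.64 in muscle. In hypothalamus it read 18.86, 17.96 and 19.80 in the congenics and 7.12 on wild type array 1, with 19.81 on wild type array 3 and slightly more on array 2, so 5 of the 6 hypothalamus arrays lay around the muscle values. The difference was 2.27 (SE 1.70; limma adjusted p = 0.369), 0.14 without wild type array 1 (SE 0.31; 0.772) and -0.49 after a joint normalization of the other 11 arrays, so its direction rests on array 1 and on the scaling.

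The 12 genes that did not pass in the 12-array fit were Ndufa9, Ndufb5, Ndufv1, Sdha, Uqcrc2, Cox4i1, Cox6b2, Cox7b2, Cox8a, Atp5b, Atp5g3 and Atp5md. Of these, Ndufa9, Ndufb5, Ndufv1, Sdha, Cox4i1 and Atp5g3 passed as higher in muscle, and Cox6b2 as lower, once wild type hypothalamus array 1 was left out. On that array Ndufa9 read 8.10 against 15.28 to 15.48, and Ndufb5 read 7.52 against 14.87 to 17.23.

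Genes that serve the pathway without being members were taken from 3 lists. Of the remaining subunits and electron carriers, cytochrome c1 (Cyc1) and cytochrome c (Cycs) were higher in muscle by 2.85 (SE 0.29, limma adjusted p = 5.16e-06) and 2.03 (SE 0.27, 7.36e-05). They were 2 of 4 measured genes, against 23.3% of all genes, with a list median of 1.20. The others, Cyct at 0.37 (limma adjusted p = 0.381) and Atpif1 at -1.08 (0.141), did not pass. Of 15 assembly factors 9 were higher and 0 lower, with a median of 1.30, against 23.3% and 12.6% of all genes. Of 10 carriers and uncoupling proteins 6 were higher and 0 lower, with a median of 1.86. Without wild type hypothalamus array 1 the counts of the carriers were 6 and 2, against 30.4% and 19.1% of all genes. The count lower was thus near the share of all genes. The mitochondrial creatine kinase of muscle, Ckmt2, differed by 9.74 (limma adjusted p = 1.77e-07). The uncoupling protein of muscle, Ucp3, differed by 5.69 (8.92e-08). The brain form of the creatine kinase, Ckmt1, differed by -2.76 (0.0663), and by -3.99 (8.95e-07) without that array. The other gene called lower without it was the ADP/ATP carrier Slc25a5, which differed by -0.05 (limma adjusted p = 0.975) with all arrays and by -1.01 (0.000515) without it. No gene of the 3 lists passed in either strain test.

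In muscle, no strain difference was found in any member. By limma 0 of 61 genes passed, where 0.0289% of all genes (4 of 13840) did, and the smallest adjusted p was 0.835. At an unadjusted p of 0.05, 4 members passed, against 5.04% of all genes. The differences, congenic minus wild type, ran from -0.92 to 0.43 with a median of 0.01, and 31 were above and 30 below 0. The median over the 27 complex I genes was -0.02, and it was -0.22 for complex II, 0.04 for complex III, 0.11 for complex IV and 0.06 for complex V.

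The muscle arrays gave these genes narrow intervals. The residual SD of a member had a median of 0.195, against 0.417 for all genes, and the 95% interval of the strain difference reached a median of 0.38 to either side. For 55 of the 61 genes this interval lay within 1 log2 unit, or 2-fold, in both directions. The other 6 were Cox6b2, Cox4i2, Sdhb, Cox7b2, Ndufa5 and Ndufs1. The muscle isoforms Cox8b and Cox7a1 differed by -0.07 (interval -0.54 to 0.40) and 0.07 (-0.31 to 0.46).

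The 5 members with the smallest p in muscle were all lower in the congenics and did not pass. Ndufs1 read 17.73, 17.52 and 17.21 in the congenics and 17.86, 18.85 and 18.12 in the wild type. All congenic values were below all wild type values, by a narrow gap, and wild type array 2 was the highest. Its difference was -0.79 (SE 0.25; unadjusted p = 0.0104, limma adjusted p = 0.835). Ndufa5, an accessory subunit of complex I, read 18.62, 18.70 and 17.45 in the congenics and 19.38, 18.62 and 19.52 in the wild type, where the groups overlapped and congenic array 3 was the lowest; its difference was -0.92 (SE 0.34; limma adjusted p = 0.835). Sdha differed by -0.43, Ndufc2 by -0.34 and Atp5pb by -0.41, each with the same limma adjusted p of 0.835.

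Over all members, 3 had every congenic muscle array above every wild type array (Ndufb4, Ndufb7 and Atp5o; 7.34% of all genes did) and 6 had every one below (Ndufb5, Ndufc2, Ndufs1, Sdha, Uqcrfs1 and Atp5pb; 5.05% of all genes). Ucp1, the uncoupling protein of brown fat, read 16.95 on wild type muscle array 1 and 8.51 to 10.65 on the other 5 muscle arrays. The median of the adipocyte markers, of which 2 were measured, was 15.62 on that array and 14.06 to 15.48 on the other 5. Without that array 0 of the 61 members passed and their median strain difference was 0.02.

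Ndufb10, an accessory subunit of the membrane arm of complex I, was the only member on chromosome 17, at chr17:24722060-24724423 of GRCm38.p6. Whether it lies in the congenic segment was not tested. It read 17.79, 17.96 and 18.43 in congenic muscle and 17.65, 17.57 and 18.00 in wild type muscle, and 15.26, 15.76 and 14.03 in congenic hypothalamus and 15.44, 14.48 and 14.69 in wild type hypothalamus. The strains overlapped in each tissue. The strain difference was 0.32 in muscle (SE 0.20; interval -0.12 to 0.76; limma adjusted p = 0.835). It was 0.15 in hypothalamus (SE 0.66; 0.971), and 0.44 without wild type array 1 (SE 0.49; 0.936). Muscle exceeded hypothalamus by 2.96 (SE 0.35; limma adjusted p = 2.44e-05).

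The 250 bases before its annotated start (RefSeq, GRCm38.p6, chr17:24724424-24724673, minus strand) are shown as those of the only member on the chromosome of the CAST segment. The letters are the reference's, and capitals mark the E box at position -18.
Ndufb10: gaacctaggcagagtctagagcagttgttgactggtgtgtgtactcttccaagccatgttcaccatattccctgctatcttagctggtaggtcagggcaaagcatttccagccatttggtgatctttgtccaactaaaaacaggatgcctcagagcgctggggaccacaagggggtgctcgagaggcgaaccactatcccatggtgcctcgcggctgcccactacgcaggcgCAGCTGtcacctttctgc

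**Figure D4:**
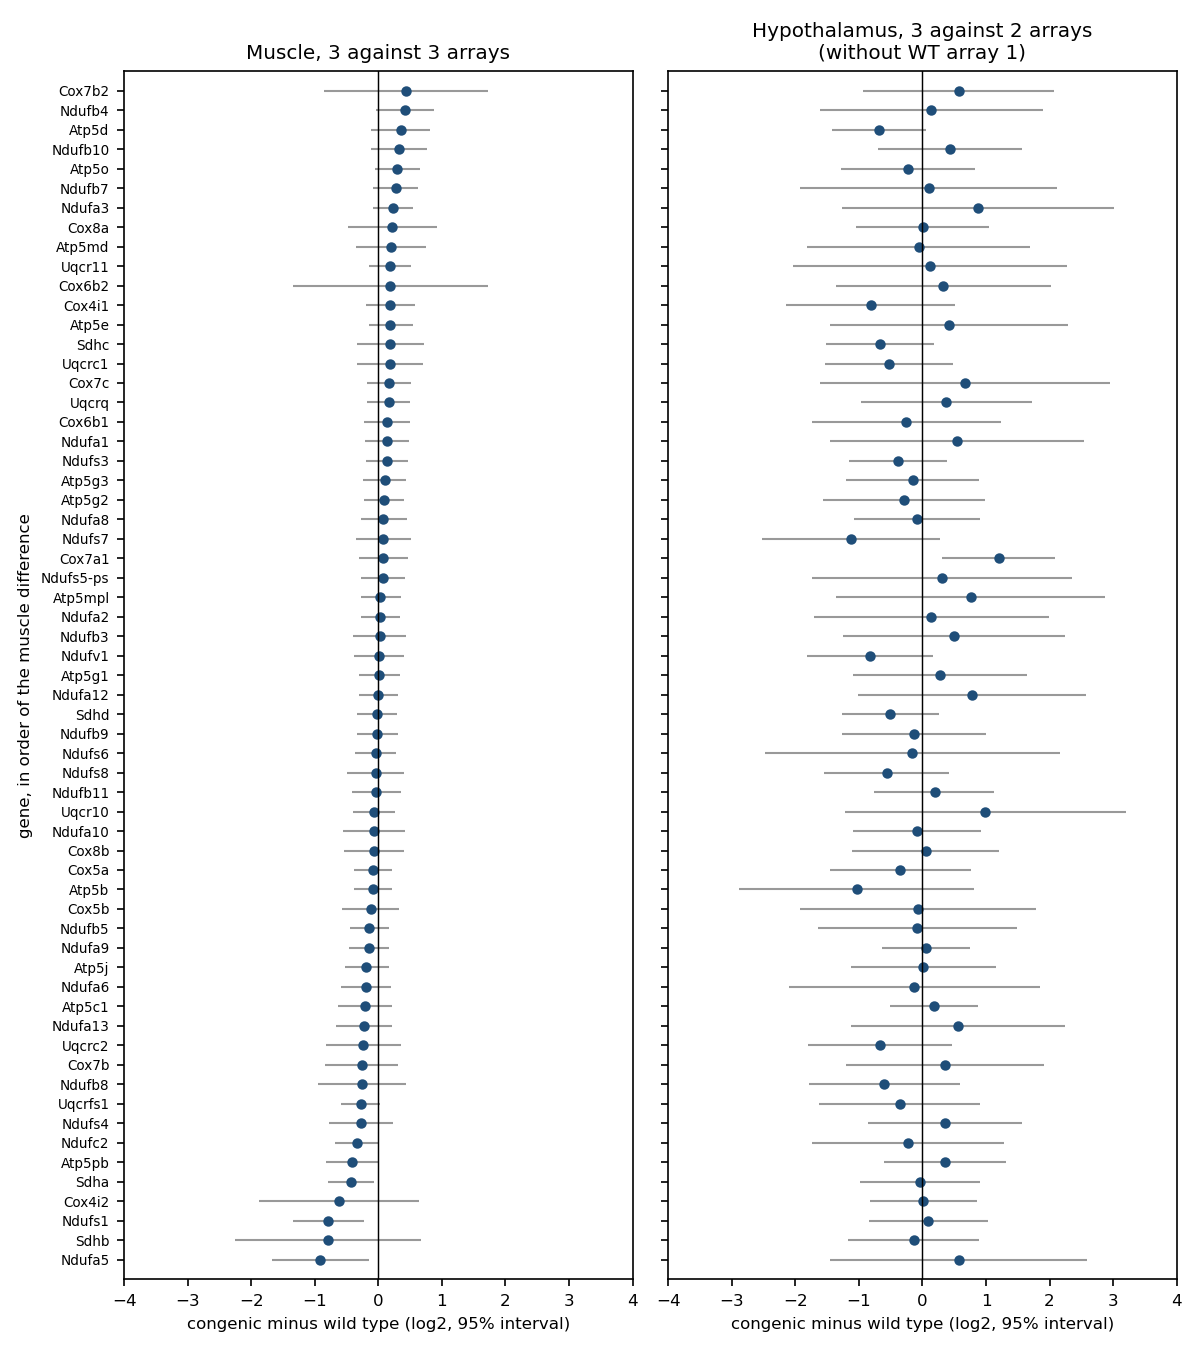
Congenic minus wild type for each gene on the log2 scale with its 95% interval from limma, in muscle (left) and in hypothalamus without wild type array 1 (right), in the order of the muscle difference. The median interval reaches 0.38 to either side in muscle and 1.28 in hypothalamus, and the genes are not in the same order in the tissues.

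In hypothalamus, 0 of 61 members passed the limma strain test on all 6 arrays (0% of all genes did), and 0 members had an unadjusted p under 0.05, against 1.69% of all genes. The median difference was 0.90, with 42 genes above 0, and the range was -0.71 to 3.23, against a median of -0.02 over all genes. This positive median went with wild type array 1. Of the 55 members whose other 5 arrays averaged over 13, 26 (47.3%) read more than 3 lower on it, against 35% of all such genes. It was the lowest of the 6 for 33 members and the highest for 17, from Atp5b, at -12.16 relative to the mean of the others, to Cox7b, at 2.82.

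Without that array the median was 0.01, 32 differences were above and 29 below 0, and again 0 passed (0% of all genes; smallest adjusted p among members 0.9 by limma). At an unadjusted p of 0.05 there was 1 member, Cox7a1, against 6.58% of all genes. Cox7a1 read 10.89, 11.73 and 10.93 in the congenics and 9.91 and 10.05 on wild type arrays 2 and 3, with the congenics higher and every value above the array median of 8.98. Its difference was 1.20 (SE 0.39; limma adjusted p = 0.9), and 0.14 with array 1, which read 13.17. The next smallest p values were those of Atp5d at -0.68, Ndufv1 at -0.82, Ndufs7 at -1.13 and Sdhc at -0.66, all with a limma adjusted p of 0.9. With all 6 arrays the smallest were those of Ndufa12 at 2.31, Ndufa1 at 2.27, Cox7c at 1.91, Atp5c1 at 2.01 and Ndufb11 at 1.90 (limma adjusted p = 0.936 each).

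The hypothalamus intervals were wide. The residual SD of a member had a median of 1.413 on 6 arrays and 0.731 without wild type array 1, against 0.824 and 0.473 for all genes, so in both of these fits the median SD of the members was above that of all genes, and in muscle it was below. The median interval reached 2.17 and 1.28 to either side, and it lay within 1 log2 unit for 1 and 4 of the 61 genes. On 6 arrays Atp5c1 had every congenic value above every wild type value (3.01% of all genes) and Sdhd every one below (5.67%). Without wild type array 1, Cox7a1 and Atp5c1 lay above (7.98% of all genes), and 8 lay below (16.4%): Ndufb8, Ndufs3, Ndufs8, Sdhc, Sdhd, Uqcrc2, Atp5b and Atp5d. A strain difference of 2-fold in most of these genes was therefore not detectable in these 2 fits.

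Part of that spread lay in congenic array 3. Against the mean of congenic arrays 1 and 2, 36 of 61 members (59%) read more than 1 lower on it, with a median of -1.30, while 11.1% of all genes did, with a median of 0.12. The low genes were mostly subunits outside the core. After these values were seen, the members were divided into 14 subunits taken as core, for catalytic sites, cofactors or core proteins, and 47 others. The 14 were Ndufs1, Ndufs3, Ndufs7, Ndufs8, Ndufv1, Sdha, Sdhb, Sdhc, Sdhd, Uqcrc1, Uqcrc2, Uqcrfs1, Atp5b and Atp5c1. No complex IV gene was among them, so Cox5a and Cox5b counted with the others, and another assignment was not tested. The median was 0.77 for the core (5 of 14 below 0) and -1.74 for the others (44 of 47 below 0). For example Ndufs6, an accessory subunit, read 17.36, 17.56 and 13.90 on congenic arrays 1, 2 and 3, and Uqcr10 read 17.37, 17.76 and 14.17, while the core subunit Ndufv1 read 15.12, 15.21 and 16.19. The 56 cytosolic ribosomal protein genes had a median of -1.72. Why these genes read low on this array was not tested. On congenic muscle array 3 the corresponding median over the 61 genes was 0.18.

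**Figure D5:**
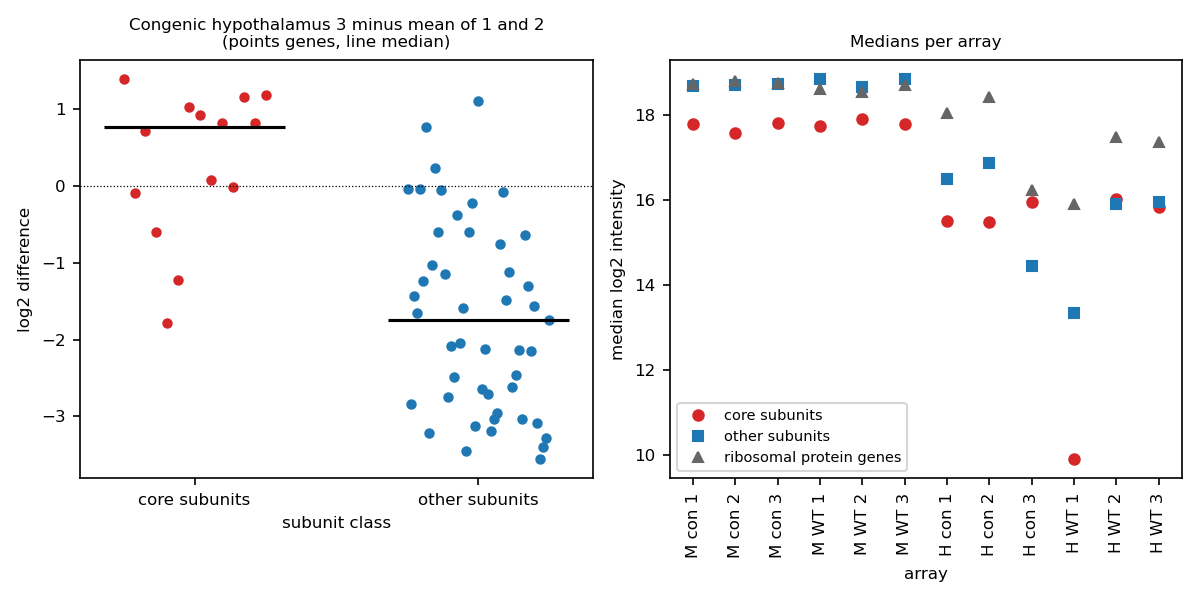
Left, congenic hypothalamus array 3 minus the mean of arrays 1 and 2 on the log2 scale, for core and other subunits (points are genes, lines medians of 0.77 and -1.74). Right, median log2 intensity of core subunits, other subunits and ribosomal protein genes on each of the 12 arrays; in hypothalamus the other subunits and the ribosomal genes are low together on congenic array 3 and wild type array 1, and core subunits are low on wild type array 1 but not on congenic array 3.

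With both of these arrays left out, a setting chosen after the values were seen, 2 arrays stood against 2. The median residual SD of the members was then 0.275, against 0.342 for all genes, and the median interval reached 0.65 to either side and lay within 1 log2 unit for 15 genes. Under this setting 9 members were higher in the congenics and 0 lower, against 1.05% of all genes in each direction. Congenic array 3 had been singled out by the low values of these same members. Leaving it out raises the congenic mean of most of them, so the count is no separate test. Uqcr10, a small subunit of complex III, read 17.37 and 17.76 in the congenics and 15.30 and 15.59 in the wild type, a difference of 2.12 (SE 0.28; limma adjusted p = 0.0118). Ndufa1, an accessory subunit of complex I, read 15.21 and 15.45 against 13.72 and 13.76, a difference of 1.59 (SE 0.21; 0.0118). The other 7 were Ndufa3, Ndufa5, Ndufa12, Ndufb3, Cox7c, Atp5e and Atp5mpl, at 1.36 to 1.94.

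All 9 belong to the 47 other subunits, which make up most of the members. That division was made after values of congenic arrays 1 and 2 were seen, and both arrays enter the strain difference here. The comparison of the classes is therefore no separate test. The median difference was 0.86 for the 47 and -0.52 for the 14 core subunits. The ribosomal protein genes lay the same way, with a median of -0.69 for wild type arrays 2 and 3 minus congenic arrays 1 and 2, where the 47 subunits had -0.86. Markers of other cell types also differed between these arrays. The median of 6 anterior pituitary genes, all measured, was 15.25 on congenic array 1, 10.71 on congenic array 2, and 9.49 and 9.81 on wild type arrays 2 and 3. It was 9.93 on congenic array 3 and 9.82 on wild type array 1. The median of the oligodendrocyte markers, of which 5 of 7 were measured, was 9.74, 11.33 and 12.75 on congenic arrays 1, 2 and 3, and 7.90, 10.46 and 11.01 on wild type arrays 1, 2 and 3. Their part in the strain values was not tested. On the omitted congenic array 3 the 9 genes read below congenic arrays 1 and 2: Uqcr10 read 14.17 and Ndufa1 12.20, below both wild type arrays. With congenic array 3 kept, Uqcr10 differed by 0.99 (limma adjusted p = 0.923) and Ndufa1 by 0.54 (0.951), so the calls rest on leaving it out.

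On all 12 arrays the strain difference did not pass as unlike between the tissues in any member. In the interaction test over 12 arrays, muscle minus hypothalamus, 0 of 61 passed (0% of all genes; 0 members at an unadjusted p of 0.05 against 3.19% of all genes, limma), with a median of -0.76. The smallest p values were those of Ndufa5 at -2.06 (SE 1.13), Ndufa12 at -2.32 (SE 1.48) and Atp5c1 at -2.22 (SE 1.53), each with a limma adjusted p of 0.913. Without wild type hypothalamus array 1 the median was -0.11, and 0 passed (0% of all genes), with 2 members at an unadjusted p of 0.05 against 7.72% of all genes. With congenic hypothalamus array 3 also left out, 6 members were lower in this contrast, against 0.462% of all genes, and 0 higher, against 0.303%. The 6 were Ndufa1, Ndufa3, Ndufa12, Uqcr10, Cox7c and Atp5mpl. They are among the 9 above, and the choice of that array limits this count in the same way.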

How the data were processed

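RNA of 12 mouse tissue samples was labelled with digoxigenin and read on chemiluminescent 1-colour arrays, per the labels' protocols. The deposited values were taken as log2 intensities; the base was inferred from their range. The 6 arrays of a tissue shared 1 distribution, so quantile normalization within the tissue by the authors is inferred; the software is not given in the sources used here. Probes were named from the platform annotation (14411 with 1 symbol, 247 with several, 18354 with none), and the probe with the highest mean stood for a gene.

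Linear models were fitted to all 33012 probes (limma 3.58.1, R 4.3.3) with trended empirical Bayes moderation, and p-values were adjusted by Benjamini-Hochberg, with a threshold of 0.05, each strain difference within its tissue and the others over 4 group means. The fit was also run on simulated data with independent noise. These held no array that stood apart, so they do not show how the fit behaves with such an array. The number of arrays limits the precision. Genes named are the tissue isoforms, core subunits, the chromosome 17 member, the largest tissue differences and the smallest p values. For complex IV, Cox5a and Cox5b were named in place of core subunits. Others were chosen after their values were seen. The members and lists were chosen with earlier results of these data known. Protein sequences were not used here. Same-numbered arrays did not deviate together, so the main fits have no block. Alternatives covered scaling, a floor, a filter, the trend, a block and each array left out.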

Additional observations from a re-analysis of the deposited data

How the results depend on the processing

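For the 25 members whose tissue difference was followed through the settings other than leaving out each array in turn, 234 values kept their direction and their side of the threshold, 23 gained and 13 lost significance, and 3 reversed. Atp5b reversed to -0.33 in the wild type without hypothalamus array 1 and to -0.49 after joint quantile normalization of 11 arrays, under which Sdha was -0.10. Uqcrc2 was not among the 25 and was -0.13 after joint normalization of 12 arrays. Of all 61 members, 56 differences were above 0 as deposited, 55 after joint normalization of 12 arrays and 53 after that of 11. The count higher in muscle was 29 with wild type arrays alone (9.24% of all genes). It was 43 to 53 as each array was left out in turn, where 2821 to 4204 of all 13840 genes were higher. The count lower was 4 after joint normalization of 11 arrays (22.5% of all genes). It was also 4 without both hypothalamus arrays (wild type 1 and congenic 3), where 2655 of all genes were lower. As each array was left out, it was 2 to 3, and 1517 to 2639 of all genes were lower. The median was 1.55 after joint normalization of 11 arrays, and 2.37 to 3.25 as each array was left out.

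As each array was left out, the median strain difference was -0.05 to 0.04 in muscle and 0.01 to 1.48 in hypothalamus, the interaction median was -1.40 to -0.11, and 0 members passed in any of these. Without both hypothalamus arrays, 9 members were higher in the congenic hypothalamus (1.05% of all genes) and 6 lower in the interaction (0.462%). That setting was added after the data were seen, and the members' low values had singled out congenic array 3. The causes were not tested. A floor, a filter, no trend or centring changed none of the counts of members called in the strain and interaction tests.

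The correlation of same-numbered arrays' deviations ran from -0.129 to 0.138, so the numbers were not taken to pair the samples. With strain and replicate number together as a block, 51 members were higher and 2 lower in muscle than in hypothalamus. Of all 13840 genes, 3052 were higher and 1638 lower in that fit. With that block 0 passed in the interaction. With the replicate number alone as a block, 0 passed in either strain test. The absence of background calls limits every fold against a value near or below the array median.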
